A study of Saccharomyces cerevisiae with 20 samples.

Results

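The genes described here are those of chromosome XI of *Saccharomyces cerevisiae* that had a mean of at least 10 read counts in the wild type (WT) libraries. Of the 369 chromosome XI genes listed in the count tables, 314 met this limit, out of 7126 genes listed in all, and the limit used no mutant library. Messenger RNA of strain BY4741, a haploid laboratory strain of mating type **a**, was sequenced in 5 groups of 4 libraries each. Beside WT, there were double mutants that lack *DEG1* together with *ELP3* or *URM1* (*elp3 deg1* and *urm1 deg1*) and double mutants that lack *TCD1* together with the same genes (*elp3 tcd1* and *urm1 tcd1*). The labels add *lys2* to the genotype of every group, WT included. All cultures were grown in synthetic minimal medium with yeast nitrogen base and harvested at an OD600 of 1.0. Elp3 is the catalytic subunit of Elongator and Urm1 the sulphur carrier of the thiolation pathway, which both modify the wobble uridine of certain tRNAs. Deg1 makes pseudouridine in the anticodon arm, and Tcd1 forms the cyclic version of the threonylcarbamoyl modification next to the anticodon. The study's strain list names 1 strain for each mutant, so a group of libraries stands for a single strain, and nothing in the labels says that its libraries came from separate cultures. The p-values below therefore measure the spread between these libraries only.

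In a haploid cell every nuclear chromosome is present once. An extra copy of a chromosome, called a disomy in haploid yeast, doubles the template of each of its genes, and for most yeast genes the mRNA is known to follow the number of copies. A gene whose mRNA stays below that level is called compensated, and a gene may also exceed it. The DNA of these strains was not measured in the files used here, so the doubling below is a reference level for RNA and not a counted copy number. In bulk RNA, fewer cells with an extra chromosome and less RNA per copy cannot be told apart.

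Deleted genes were checked first. *URM1* had 0 to 1 counts and *TCD1* 0 to 2 counts in *urm1 tcd1* replicates 1 to 3, and *DEG1* had 0 in both *deg1* groups. *ELP3* had 0 to 3 counts in *elp3 deg1*, and *URM1* 0 to 1 in *urm1 deg1*. In *elp3 tcd1* replicates 1 to 3, *ELP3* had 3 to 7 counts, while *TCD1* kept 147 to 185 against 377 to 407 in WT. In 1 library of each *tcd1* group these counts contradicted the label. The library labelled *urm1 tcd1* replicate 4 had 174 counts of *URM1* and 5 of *ELP3*, and the library labelled *elp3 tcd1* replicate 4 had 345 counts of *ELP3* and 0 of *URM1*. Both were kept out of the comparisons, and their own values are given by label. Library totals ranged from 3273876 to 3926511 counts. Levels are given as CPM, that is counts scaled to a library of fixed size with TMM normalisation, on which 3 counts, the limit that a count of 0 allows, correspond to 0.719 to 1.06 CPM. *URA3*, *LEU2* and *MET17* were at 0 throughout, *LYS2* had 14 to 110 counts, and *HIS3*, which the strain list gives as deleted, had 648 to 1820. The **a**-cell gene *STE2* had 492 to 7115 counts, and the alpha-cell gene *MF(ALPHA)1* had 1 to 45.

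Chromosome XI held 10.75% to 10.89% of all counts in *urm1 tcd1* replicates 1 to 3, against 5.071% to 5.106% in WT. The median chromosome XI gene stood 0.996, 1.013 and 0.995 above the WT mean in these 3 libraries, on the scale of log2 CPM with a prior count of 2, where a doubling is 1. The library labelled *elp3 tcd1* replicate 4 stood at 0.970, with 10.82% of its counts on the chromosome. The library labelled *urm1 tcd1* replicate 4 stood at -0.001. In the remaining libraries the chromosome XI median lay between -0.010 and 0.106, and no other chromosome in the 4 raised libraries had a median outside -0.135 to 0.014. In the raised libraries, 298 to 302 of the 314 genes lay above their WT mean.

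**Figure D1:**
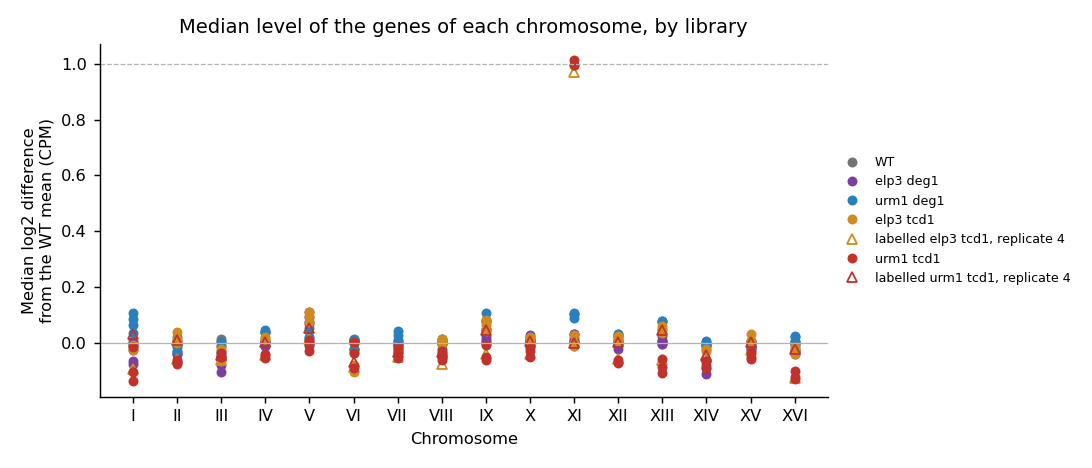
Median log2 difference from the WT mean (CPM, prior count 2) of the genes of each chromosome, 1 point per library, with open triangles for replicate 4 of both *tcd1* labels. *urm1 tcd1* replicates 1 to 3 and the library labelled *elp3 tcd1* replicate 4 sit at 0.970 to 1.013 on chromosome XI, and all other points lie between -0.135 and 0.111.

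The rise was seen in each stretch of the chromosome that held more than 2 of the genes. In the 13 windows of 50000 bases that held 16 to 30 of the genes, the median of each *urm1 tcd1* library lay between 0.610 and 1.352 above the WT mean. The lowest window was the first, at the left end, with 0.610, 0.623 and 0.715. This window was also low in *elp3 tcd1*, at -0.541, -0.587 and -0.583, and in the *deg1* mutants, at -0.256 to -0.532. The last window, at the right end, held 2 genes only, with medians of -0.232, 0.297 and 0.480 in *urm1 tcd1*. Its median was 0.037 for the library labelled *elp3 tcd1* replicate 4. Both genes were called below a doubling.

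**Figure D2:**
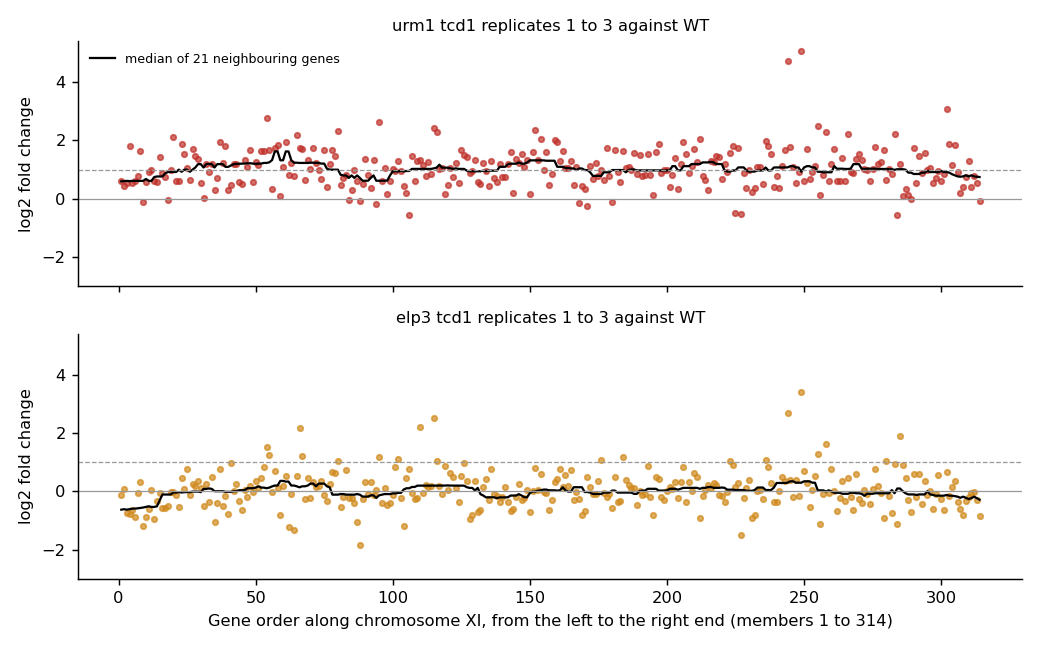
log2 fold change against WT of each of the 314 genes in their order along chromosome XI, for *urm1 tcd1* replicates 1 to 3 (top) and *elp3 tcd1* replicates 1 to 3 (bottom), with the median of 21 neighbouring genes as a line and a doubling as the dashed line. The line moves around 1 in the upper panel and around 0 in the lower panel, and is low at the left end in both.

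Short stretches of upstream DNA are shown for genes to which the results return, because they hold letters that known regulators of these genes bind. GATAAG is bound by the GATA factors of nitrogen catabolite repression, ACGCGT (the MCB element) by the MBF factor that drives transcription at the start of S phase, and CACGTG by Cbf1, a factor of sulphur assimilation genes among others. The 500 bases before the start codon were searched on both strands, and the motifs were chosen after values had been seen. Each line is 30 bases from the R64 reference genome of RefSeq, read 5′ to 3′ on the strand of the gene, with the motif or its reverse complement in capitals.
*GAP1*, chrXI:514708-514737, plus strand: gatttggtaactGATAAGattgttaaatgt
*GAP1*, chrXI:514809-514838, plus strand: taaattaaacatGATAAGcgcatagttggg
*DAL80*, chrXI:506659-506688, plus strand: accgatcctgggCTTATCtcgctgcattgt
*PRI2*, chrXI:353316-353345, plus strand: tgatttgaaattACGCGTcgcggggaatcg
*SPC42*, chrXI:358230-358259, plus strand: atggcttctattACGCGTcgtggttggtga
*MSA2*, chrXI:583466-583495, plus strand: aattgacgcgaaACGCGTtaaagtgcaaaa
*MET14*, chrXI:439596-439625, minus strand: tgccactaatttCACGTGatcaatatattt
*MET1*, chrXI:571332-571361, plus strand: aatgccattatgCACGTGacattacaaatt

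Per gene, the question was how far the rise in *urm1 tcd1* replicates 1 to 3 departed from a doubling. In edgeR's quasi-likelihood test with Benjamini-Hochberg adjustment over 5828 genes, called at an adjusted p at or under 0.01, 284 of the 314 genes (90.4%) were higher than in WT, where 32.8% of all genes tested were called higher. Only *PRY2* and *YKR075C* were called lower, against 32.3% of all genes tested. The departure was then tested by giving chromosome XI genes an expected level of 2 times WT and all other genes an expected level of 1 times WT. Of the 314 genes, 116 (36.9%) exceeded a doubling and 115 (36.6%) stayed below it, and 83 were not called. Over all genes tested, 29.8% were above their own expected level and 34.2% below it. Without chromosome XI these shares were 29.5% and 34.1%. The share below was thus near that of the rest of the genome, and the share above was higher. Of the 314, 36.9% were higher than WT in *elp3 deg1*, 38.5% in *urm1 deg1* and 33.4% in *elp3 tcd1* replicates 1 to 3. Chromosome XI was not raised in those libraries, and the shares of all genes tested were 33.1%, 33.2% and 32.1%.

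The size of the departures was broadly like that of other genes, with a somewhat wider middle. The median departure was 0.003 (log2), with a standard deviation over genes of 0.677 and with the middle 50% of genes between -0.390 and 0.434. For 5368 genes off chromosome XI with the same minimum level, the median was -0.054 and the standard deviation 0.714. Their middle 50% lay between -0.382 and 0.310. Within 0.32 of the expected level lay 40.4% of the 314 genes and 46.5% of the others, and 10.2% and 10.7% lay over 1 from it. In fold terms, 152 of the 314 genes rose between 1.5 and 2.5 times, 71 stood at less than 1.5 times WT, and 91 at more than 2.5 times. 18 genes stood at more than 4 times WT and 14 below the WT level. With all 4 libraries labelled *urm1 tcd1*, 10 genes were called above and 45 below, and the median departure was -0.177.

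**Figure D3:**
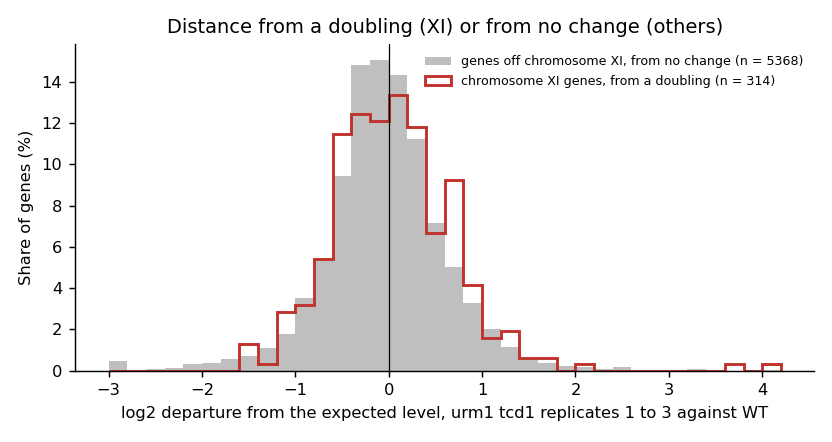
Share of genes (%) by log2 departure from the expected level in *urm1 tcd1* replicates 1 to 3 against WT, for 314 chromosome XI genes measured from a doubling (red line) and 5368 other genes measured from no change (grey). The outlines largely overlap, with medians of 0.003 and -0.054. Values outside the axis are drawn in the outermost bins.

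The genes nearest to a doubling came from varied processes. *TOR2*, which encodes a kinase of both TOR complexes, had 94.6, 95.3, 104 and 98.8 CPM in WT and 195, 180 and 210 CPM in *urm1 tcd1*. *NUP120*, a nuclear pore subunit, had a departure of 0.001 ± 0.071 (SE), and *PRP16*, a splicing helicase, one of -0.00 ± 0.057. *MYO3*, a type I myosin, stood at 0.001 ± 0.054, and *LTV1*, a factor of small ribosomal subunit assembly, at -0.002 ± 0.057. These 5 genes were chosen for their small departure, so that lying within their standard error of a doubling is no separate result.

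The genes farthest below a doubling had about the WT level or less. *PRY2*, which encodes a secreted sterol-binding protein, had 77.0, 77.6, 83.1 and 95.6 CPM in WT and 61.2, 55.8 and 58.7 CPM in *urm1 tcd1*. All 3 mutant libraries were below all WT libraries, with a departure of -1.50 ± 0.08 (adjusted p = 1.7e-18, edgeR). *SPC42*, which encodes a core component of the spindle pole body, had 36.3, 37.5, 38.0 and 42.8 CPM in WT and 30.6, 32.8 and 34.0 CPM in *urm1 tcd1*. Its departure was -1.24 ± 0.10 (adjusted p = 3.1e-13), although its level was not called different from WT (adjusted p = 0.037). *PRI2*, a subunit of DNA primase, had 69.6, 68.9, 63.1 and 67.9 CPM in WT and 67.9, 65.6 and 49.8 CPM in *urm1 tcd1*, so that the groups overlapped, and departed by -1.13 ± 0.09. *IXR1*, an HMG-box transcription factor, had 282 to 307 CPM in WT and 254 to 282 CPM in *urm1 tcd1*, the highest mutant library lying just under the lowest WT library, and departed by -1.10 ± 0.05.

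*YKR075C* had 329 to 353 CPM in WT and 212 to 240 CPM in *urm1 tcd1*, with the largest downward departure, -1.56 ± 0.05. *YKL107W* and *YKR015C* followed at -1.54 ± 0.31 and -1.53 ± 0.18, but at low levels: *YKL107W* had 4.07 to 6.57 CPM in WT and 5.04, 1.76 and 3.78 CPM in *urm1 tcd1*. *DGR2* (-1.19 ± 0.10), *DOA1* (-1.12 ± 0.04), which encodes a ubiquitin-binding cofactor of Cdc48, and *PGM1* (-1.07 ± 0.05), a phosphoglucomutase, completed the 10 named by rule. The library labelled *elp3 tcd1* replicate 4 had 54.5 CPM of *PRY2*, 32.3 CPM of *SPC42* and 56.1 CPM of *PRI2*. Of the 115 genes below a doubling, 90 were nevertheless called higher than WT and 25 were not.

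At the other end stood genes of nitrogen supply. *GAP1*, the general amino acid permease, had 37.1, 49.7, 59.7 and 61.1 CPM in WT and 1766, 1762 and 1715 CPM in *urm1 tcd1*. That is 33.9 times the WT level and 4.08 ± 0.06 (log2) above a doubling (adjusted p = 4.4e-36). *DAL80*, which encodes a GATA repressor of nitrogen catabolic genes, had 2.48, 2.62, 1.97 and 4.85 CPM in WT and 85.1, 80.8 and 73.9 CPM in *urm1 tcd1*, a departure of 3.75 ± 0.17. Its WT mean of 10.5 counts was the lowest of the 314 genes. *PTR2*, the transporter of di- and tripeptides, rose from 20.9 to 29.0 CPM in WT to 199, 213 and 199 CPM, a departure of 2.09 ± 0.08. That their *urm1 tcd1* libraries did not overlap those of WT was part of the rule by which they were named, and is no separate result.

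*OAC1*, which encodes the mitochondrial oxaloacetate carrier, had 642 to 658 CPM in WT and 4004, 4111 and 3873 CPM in *urm1 tcd1*, a departure of 1.63 ± 0.03. *FBA1*, the aldolase of glycolysis, had 3643 to 3773 CPM in WT and 19100, 20050 and 17900 CPM in *urm1 tcd1*, a departure of 1.36 ± 0.03. Genes of the cell wall and of lipid storage were among the 10 as well. *PIR3*, a cell wall glycoprotein, departed by 1.78 ± 0.05, *CWP2*, a cell wall mannoprotein, by 1.41 ± 0.06, and *PLN1*, a lipid droplet protein, by 1.51 ± 0.05. *CMC1*, a factor of cytochrome c oxidase assembly, and *FMP46*, a mitochondrial protein, followed at 1.32 ± 0.10 and 1.30 ± 0.08. These genes were also raised in the library labelled *elp3 tcd1* replicate 4, with 1740 CPM of *GAP1*, 90.2 CPM of *DAL80* and 4095 CPM of *OAC1*.

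**Figure D4:**
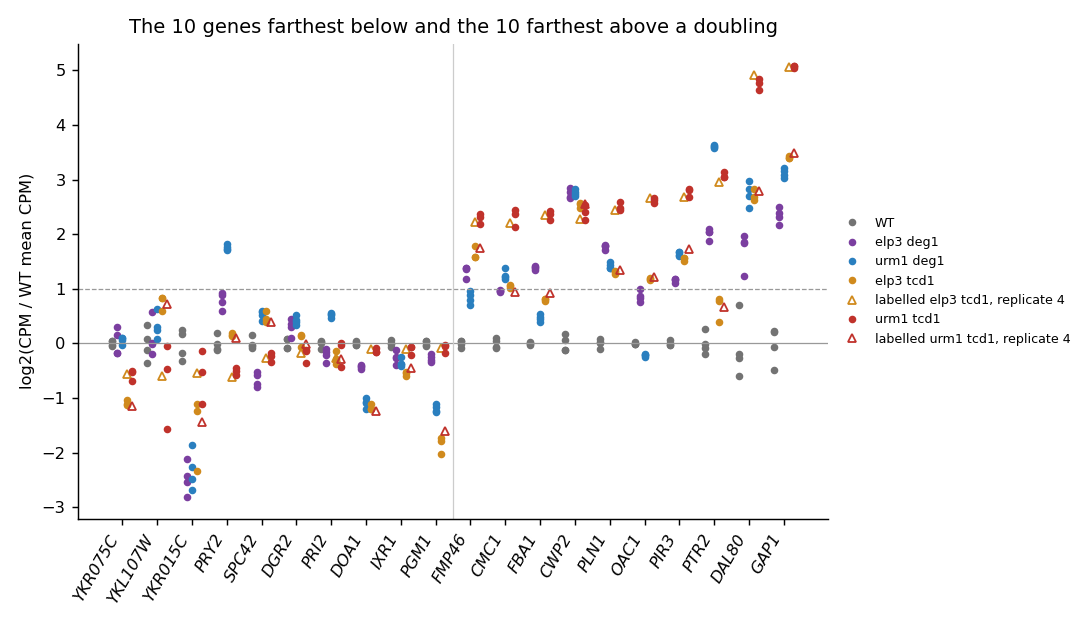
log2 ratio of CPM to the WT mean in every library for the 10 genes farthest below (left) and the 10 farthest above (right) a doubling, with the doubling as a dashed line and open triangles for replicate 4 of both *tcd1* labels. *GAP1* and *DAL80* are raised in all 4 mutants, *CWP2* stands higher in the *deg1* mutants than in *urm1 tcd1* replicates 1 to 3, and *PRY2* is highest in *urm1 deg1*.

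In mutants whose chromosome XI was not raised, genes of the chromosome were called about as often as genes elsewhere. In *elp3 deg1*, 116 of the 314 genes were called higher than in WT and 104 lower, against 33.1% and 33.4% of all genes tested. In *urm1 deg1*, 121 were higher (38.5%) and 92 lower (29.3%), a tilt upward from a background of 33.2% in each direction. In *elp3 tcd1* replicates 1 to 3, 105 were higher and 111 lower, with a background of 32.1% and 32.4%. With all 4 libraries of that label, 51 were called higher and 1 lower. 59 of the 314 genes (18.8%) were higher in all 3 of these mutants and 49 (15.6%) lower in all 3, close to the 14.3% and 16.3% of genes off chromosome XI that met the same rule. These comparisons share the WT libraries with each other and with the departure from WT.

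*GAP1* rose by 2.35 ± 0.08, 3.10 ± 0.07 and 3.41 ± 0.06 (log2) in *elp3 deg1*, *urm1 deg1* and *elp3 tcd1*, respectively. *DAL80* rose by 1.74 ± 0.25, 2.71 ± 0.21 and 2.69 ± 0.21 in the same order. *CWP2* rose by 2.74 ± 0.05, 2.73 ± 0.05 and 2.53 ± 0.05, and *PTR2* by 2.02 ± 0.09, 3.58 ± 0.06 and 0.67 ± 0.11. *APE1*, a vacuolar aminopeptidase carried by the Cvt and autophagy routes, rose from 81.9 to 95.6 CPM in WT to 720 to 791 CPM in *elp3 deg1*, while *urm1 tcd1* had 218, 233 and 203 CPM.

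Decreases were also large. *JEN1*, the lactate and pyruvate permease, had 165 to 177 CPM in WT, 22.3 to 30.4 CPM in *elp3 deg1* and 40.8 to 46.5 CPM in *urm1 deg1*. *URA1*, dihydroorotate dehydrogenase, fell by 2.19 in *elp3 deg1*, by 1.32 in *urm1 deg1* and by 0.86 in *elp3 tcd1* (log2), but rose by 0.60 ± 0.03 in *urm1 tcd1*. *RSM22*, a protein of the small mitochondrial ribosomal subunit, had 183 to 188 CPM in WT, 44.5 to 56.0 CPM in *urm1 deg1*, 77.5 to 83.9 CPM in *elp3 tcd1* and 314, 325 and 333 CPM in *urm1 tcd1*. Against WT it stood 0.19 below a doubling, and against *elp3 tcd1* 1.02 ± 0.06 above it. *YKR015C* fell in all 3 mutants, by 2.44, 2.32 and 1.49. *YKL153W*, also named by rule for *elp3 tcd1*, had 2.53 to 5.78 CPM in WT and 0.850 to 1.97 CPM in *elp3 tcd1* replicates 1 to 3, and its call was lost without WT replicate 1 and without *elp3 tcd1* replicates 2 or 3.

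The reference therefore mattered for single genes. Against *elp3 tcd1* replicates 1 to 3, 99 of the 314 genes were above a doubling and 92 below it, with a background of 26.4% and 32.2%. Against *urm1 deg1* the counts were 100 and 113, with a background of 30.3% and 36.1%, and against *elp3 deg1* they were 102 and 112, with 27.7% and 33.2%. Of the 115 genes below a doubling against WT, 56 were also below it against *elp3 tcd1*, 44 were not called and 15 were above it. Of the 116 genes above a doubling against WT, 65 were also above it against *elp3 tcd1*, 34 were not called and 17 were below it. How calls against WT and against *elp3 tcd1* combine was not counted for genes off chromosome XI, so these splits have no background and are a description only. The 4 tests share the *urm1 tcd1* libraries.

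*PGM1* passed to the other side. It had 167 to 177 CPM in WT, 42.5 to 51.9 CPM in *elp3 tcd1* replicates 1 to 3 and 167, 170 and 152 CPM in *urm1 tcd1*. It was thus 1.07 below a doubling of WT but 0.76 ± 0.08 above a doubling of *elp3 tcd1* (adjusted p = 2.3e-13). *DOA1* had 318 to 337 CPM in WT, 141 to 151 CPM in *elp3 tcd1* and 292 to 307 CPM in *urm1 tcd1*, and was not called against *elp3 tcd1* (0.04 ± 0.05). *CWP2* went the opposite way: with 671, 715 and 702 CPM in *elp3 tcd1* and 637, 692 and 574 CPM in *urm1 tcd1*, it was 1.13 ± 0.05 (log2) below a doubling of *elp3 tcd1*. *APE1* stood 1.91 below a doubling of *elp3 tcd1* and 2.79 below a doubling of *elp3 deg1*.

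38 genes (12.1%) stayed below a doubling against all 4 references and 38 exceeded it against all 4, where 10.1% and 10.5% of all genes tested met the same rule. DESeq2 placed 25 genes below in all 4. *PRY2*, *SPC42*, *PRI2*, *DGR2*, *IXR1*, *YKL107W* and *YKR075C* belonged to the genes below. *PRY2* departed by -1.66 ± 0.08 against *elp3 tcd1*, by -3.27 ± 0.06 against *urm1 deg1* and by -2.31 ± 0.08 against *elp3 deg1*. *MSA2*, which encodes a partner of the G1 transcription factors SBF and MBF, had 29.7 to 39.4 CPM in WT, 57.8 to 66.8 CPM in *elp3 tcd1*, 73.6 to 85.8 CPM in *urm1 deg1* and 33.3, 34.2 and 36.8 CPM in *urm1 tcd1*. The library labelled *urm1 tcd1* replicate 4 had 70.2 CPM of it and the library labelled *elp3 tcd1* replicate 4 had 37.9 CPM. *EAP1*, an inhibitor of cap-dependent translation, departed by -1.06 ± 0.06 against WT and by -0.33 to -0.98 against the others. *MTD1*, a folate dehydrogenase, had 375 to 434 CPM in WT and 389, 391 and 416 CPM in *urm1 tcd1*.

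Above a doubling against all 4 references stood *GAP1*, *DAL80*, *OAC1* and *PIR3* together with genes of amino acid and sulphur metabolism. *MET14*, which encodes adenylylsulphate kinase, had 632 to 652 CPM in WT, 327, 355 and 347 CPM in *elp3 tcd1* and 2609, 2767 and 2487 CPM in *urm1 tcd1*. It exceeded a doubling by 1.04 ± 0.03 against WT and by 1.94 ± 0.04 against *elp3 tcd1*, and by 0.27 and 0.22 against *urm1 deg1* and *elp3 deg1*. *MET1*, needed for the sirohaem of sulphite reductase, had 873 to 885 CPM in WT, 451 to 487 CPM in *elp3 tcd1* and 2796, 2686 and 2791 CPM in *urm1 tcd1*. *SRY1*, a hydroxyaspartate dehydratase, had 289 to 319 CPM in WT, 129 to 140 CPM in *urm1 deg1* and 1072, 1120 and 1020 CPM in *urm1 tcd1*. Its departures ran from 0.81 ± 0.04 against WT to 1.99 ± 0.05 against *urm1 deg1*. The library labelled *elp3 tcd1* replicate 4 had 2583 CPM of *MET14*, 2822 CPM of *MET1* and 1100 CPM of *SRY1*.

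For the list counts from here on, 29.8% of all genes tested were above and 34.2% below their expected level against WT. The same shares against *elp3 tcd1* were 26.4% and 32.2%. Grouped by function, the cytosolic ribosomal protein genes exceeded a doubling together. All 5 on the chromosome were called above it against WT and against *elp3 tcd1*, with median departures of 0.881 and 0.869, where the median over all 314 genes was 0.003 and 0.007. *RPS21A* had 168 to 177 CPM in WT and 789, 862 and 752 CPM in *urm1 tcd1*, and *RPL17A* had 769 to 812 and 2689, 2767 and 2655 CPM. *RPL14A*, *RPL40B* and *RPS27A* departed by 0.53, 0.88 and 0.94. 4 of the 5, all but *RPS27A*, were above against all 4 references. Ribosomal protein genes of the other chromosomes rose as well, 128 of 133 being called higher in *urm1 tcd1* with a median of 0.786 (log2). *TMA19*, a ribosome-associated protein outside these lists, departed by 0.59 ± 0.04 against WT and by 0.63, 0.93 and 0.96 against the others. Most ribosomal protein genes have a near-identical copy elsewhere, and the file headers show no option for reads that match both, so these values are less certain.

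Genes of respiration and carbon oxidation were mostly above a doubling of WT, 10 of 12 with a median of 0.667. *ATP7*, a subunit of ATP synthase (0.60 ± 0.04), *SDH3*, of succinate dehydrogenase (0.68 ± 0.05), and *MAE1*, the mitochondrial malic enzyme (0.68 ± 0.04), belonged to them. *HAP4*, the activator subunit of the respiratory Hap complex, was below at -0.56 ± 0.05, as was *NFU1*, of iron-sulphur cluster assembly. Against *elp3 tcd1* the same list had 5 genes above and 3 below, with a median of 0.093, and 11 of the 12 were higher than WT in *elp3 deg1*. The cell wall and glycosylation list had 9 of 11 above and 1 below (median 0.655) against WT, and 7 above and 2 below (0.227) against *elp3 tcd1*. *GPM1*, phosphoglycerate mutase, stood 1.18 ± 0.03 above a doubling of WT and 0.51 below a doubling of *elp3 deg1*.

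Of 13 genes of nitrogen and amino acid metabolism, 7 were above a doubling and 4 below against WT, and 10 were above and 1, *MTD1*, below against *elp3 tcd1*. Their medians were 0.47 and 0.50. The mitochondrial ribosome and translation list had 5 of 8 above and 2 below against WT (median 0.462), and 2 above and 2 below against *elp3 tcd1* (0.138). *MRPL38*, of the large mitochondrial ribosomal subunit, stood at 0.68 ± 0.09 against WT. Those below were *RSM22* and *MRP8*, the latter, despite its name, not known as a mitochondrial ribosomal protein, at -0.31 ± 0.04. Mitochondrial ribosome genes of the other chromosomes rose as well, 33 of 59 being called higher and 4 lower in *urm1 tcd1* than in WT, with a median of 0.324. *MRP49*, a mitochondrial ribosomal protein outside the list, stood at 0.25 ± 0.08 and lost its call with DESeq2, without WT replicate 1 and without *urm1 tcd1* replicate 2. Ribosome biogenesis had 9 of 15 above and 3 below against WT (median 0.328), but 4 above and 3 below against *elp3 tcd1* (0.053). Against WT it held *DBP7*, a nucleolar helicase, at 0.99 ± 0.07 and *TRZ1*, the tRNA 3′ endonuclease, at -0.87 ± 0.06. *RRN3*, *MTR2* and *TRZ1* of this list each stand in a further list as well, so the lists are not separate. Transcription machinery had 5 of 7 above and 1 below against WT, with *RPC37*, of RNA polymerase III, at 0.80 ± 0.06, and 2 above and 1 below against *elp3 tcd1*, with a median of 0.048. *RPC25*, of the same polymerase, stood at 0.24 ± 0.08 and lost its call without any of WT replicates 1, 3 and 4 and *urm1 tcd1* replicates 1 and 2.

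Other lists had lower medians against WT. Nuclear pore and transport genes had 0 of 5 above and 3 below, with a median of -0.255, and *NUP100* departed by -0.81 ± 0.04. Against *elp3 tcd1* the same list had 2 above and 2 below, with a median of -0.007. RNA processing and tRNA genes had 0 of 8 above and 4 below (median -0.150), with *HCS1*, a DNA helicase placed in that list, at -0.87 ± 0.07, and 1 in each direction against *elp3 tcd1* (median -0.057). The proteasome and protein turnover list had 1 of 6 above, the proteasomal ATPase gene *RPT1* at 0.73 ± 0.04, and 3 below, and against *elp3 tcd1* 2 in each direction. Vacuole and V-ATPase genes had 1 above and 3 below of 6, with *VMA5* at -0.51 ± 0.04, and 1 in each direction against *elp3 tcd1*. Cell cycle and kinase genes had 3 of 12 above and 5 below, the latter including *MSN4*, a stress-responsive transcription factor, at -0.85 ± 0.05. Against *elp3 tcd1* they had 2 above and 5 below. *CDC16*, which stands in this list, lost its call of -0.16 ± 0.06 without any of WT replicates 1 and 4 and *urm1 tcd1* replicates 1 to 3. The list named for glycolysis and carbohydrate storage had 3 of 6 above and 1 below. It held 2 genes of other roles, *YNK1*, a nucleoside diphosphate kinase, at 0.36 ± 0.05, and *TPK3*, a catalytic subunit of protein kinase A, at 0.15 ± 0.07 and not called. The others were *FBA1* and *GPM1*, above, *PGM1*, below, and the glycogenin gene *GLG1*, not called. *UGP1*, which encodes UDP-glucose pyrophosphorylase and is not in the list, stood at -0.01 ± 0.04. Translation factors had 1 of 4 in each direction.

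**Figure D5:**
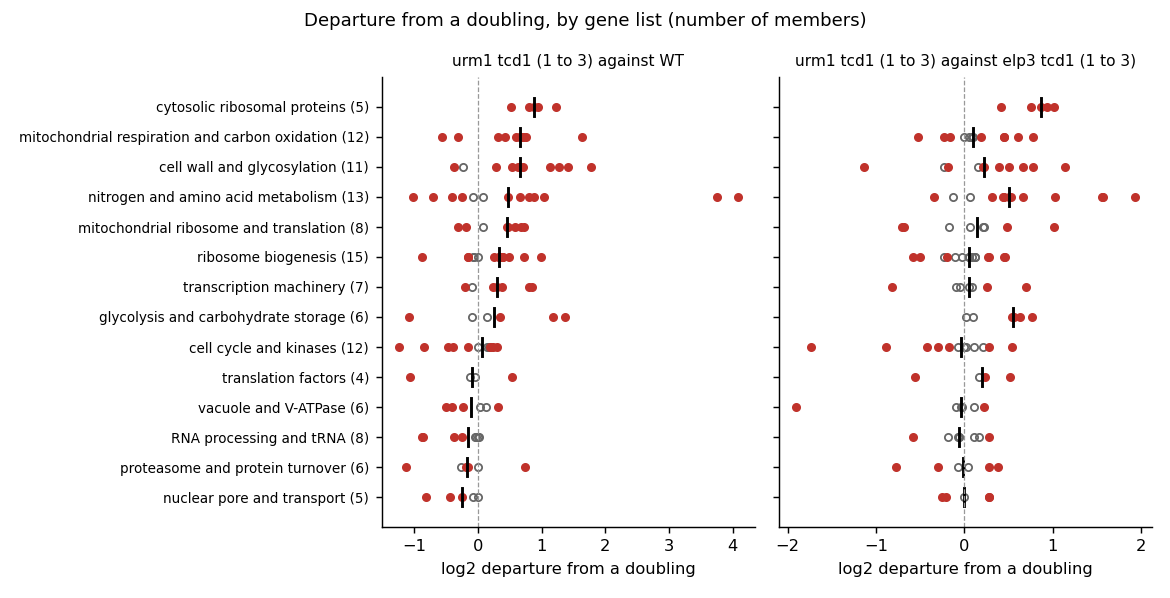
log2 departure from a doubling of each gene in 14 lists, for *urm1 tcd1* replicates 1 to 3 against WT (left) and against *elp3 tcd1* replicates 1 to 3 (right), with filled points for genes called at an adjusted p at or under 0.01, open points for others and a bar at the list's median. The 5 cytosolic ribosomal protein genes are to the right of the dashed line in both panels, while the respiration list lies to the right mainly in the left panel.

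Returning to the upstream stretches, 15 of 303 genes with a matched start codon held ACGCGT, or 4.95%, against 5.44% of all 5978 promoters searched. 8 of the 15 were below a doubling against WT and 3 above, and *PRI2*, *SPC42*, *MSA2*, *BUD2* and *SRL3* were below it against all 4 references. Over all genes tested, 34.2% were below and 29.8% above their expected level against WT. In all 4 tests, 10.1% were below and 10.5% above. Of 295 genes off chromosome XI with ACGCGT, 124 were lower in *urm1 tcd1* than in WT and 53 higher, and 51 were lower against all 4 references. CACGTG stood in 22 of the 303 (7.26%, against 6.24% of all promoters), of which 14 were above a doubling and 5 below against WT, and 8 above against all 4 references. Some of the 22 share a site with a divergent neighbour, such as *ACP1* with *DPH2* and *BET3* with *MET1*, and are not separate promoters. Off chromosome XI, 112 of 325 genes with CACGTG were higher and 96 lower, and 37 were higher against all 4 references. GATAAG was found upstream of 64 of the 303 (21.1%, against 22.8%), 26 of them above and 22 below, and 413 of 1190 genes off chromosome XI with it were higher and 374 lower. *GAP1* held 4 such sites and *DAL80* 3, the latter within the stretch it shares with its divergent neighbour *SPO14*. A match of letters is a description and does not show that a factor was bound.

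Departure also varied with gene length, in the same direction as elsewhere and somewhat more strongly. Among the 106 shortest genes, with 153 to 921 bases of annotated exon, 67 were above a doubling (63.2%) and 16 below (15.1%). Off chromosome XI, 44.2% of the genes in that length class were above their expected level and 19.6% below. Among the 105 longest, with 1713 to 12279 bases, 20 were above (19%) and 57 below (54.3%), against 20% and 46.4% of the long genes off chromosome XI. Across the 314 genes Spearman's rho between length and departure was -0.378, and across the 5368 other genes it was -0.252, given as descriptions because genes of the same libraries are not independent. The short genes include the ribosomal protein genes, and the part of length in the lists above was not tested. Between WT mean count and departure rho was -0.049 across the 314 genes and 0.047 across the 5368 others. Among the 105 genes of lowest level, with 10.5 to 206.2 mean counts in WT, 45 were above and 24 below, with a median departure of 0.191. Among the 105 of highest level, from 465.2 counts, 34 were above and 49 below, with a median of -0.091. Of 269 genes with at least 100 mean counts in WT, 99 were above and 106 below. Over all genes tested, 29.8% were above and 34.2% below their expected level. The classes of level were not counted for genes off chromosome XI, so whether these differences are particular to the chromosome was not tested.

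The limit of 10 mean counts was sharp for a few genes only. Just inside it stood *DAL80* at 10.5, *YKL123W* at 11.0 and *YKL076C* at 11.75 counts, and just outside *DPC7*, *YKL202W* and *YKR073C*, all at 9.75. Of the 55 chromosome XI genes left out, 3 had 0 counts in every library. All 314 genes passed the filter on low counts. 8 of them overlap another gene on the same strand and 26 a gene on the opposite strand, among the latter *PRY2*, *YKR075C*, *DAL80* and *GPM1*, and counting was strand-specific.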

How the data were processed

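The deposited tables hold unnormalised read counts for each gene and library. According to the labels and the study's methods, the authors prepared stranded poly(A) libraries (11 PCR cycles, no molecular identifiers), aligned reads with STAR 2.5.1b to R64 and counted with HTSeq, whereas the file headers name featureCounts 1.4.6-p2 with strand option 2, Ensembl release 84 and no option for multi-mapped reads. Counting limits quoted here cover counting error only.

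Each comparison was fitted with edgeR 4.0.16 in R 4.3.3 (TMM, quasi-likelihood test, filterByExpr with a minimum count of 10, Benjamini-Hochberg over 5828 genes, called at 0.01). For departures, log(2) was added to the offset of chromosome XI genes in the *urm1 tcd1* libraries. Standard errors are the absolute log2 value divided by the square root of the F of the quasi-likelihood test. CPM are TMM-normalised. Of the 314 genes, 303 matched a RefSeq locus tag with the same coordinates.

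Members and lists were chosen with earlier results of these data known. Named by rule were the 10 called genes with the largest departure in each direction whose *urm1 tcd1* libraries all lay on 1 side of 2 times every WT library, the 5 nearest to a doubling with at least 100 WT counts, the 3 largest changes in each direction per other mutant, and list members. Other genes (*TMA19*, *MSA2*, *BUD2*, *SRL3*, *MRP49*, *UGP1*) were named after their values were seen. Alternatives were DESeq2 1.42.0, RLE factors, TMM from genes off chromosome XI, no filter, 1 fit over 18 libraries, a replicate block, an adjusted p of 0.05, a prior count of 0.25, a WT minimum of 100, all 4 libraries of each *tcd1* label, and leaving out each library.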

Additional observations from a re-analysis of the deposited data

Results flagged for a closer look

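The chromosome XI median of the library labelled *elp3 tcd1* replicate 4, 0.970 (log2 above the WT mean), lay far from the other libraries of its label, and that of the library labelled *urm1 tcd1* replicate 4, -0.001, lay far from its own. Neither library was used in the comparisons, and the first shows the raised chromosome in data outside them. For the 20 genes farthest from a doubling, 13 had a library apart in the 4 labelled *elp3 tcd1* and 10 in the 4 labelled *urm1 tcd1*. These genes were chosen by their departure and share the same libraries, and replicate 4 was known to contradict its label. The 2 counts are therefore no separate result. For a group not chosen in this way, chance flags about 1 in 20. Among *urm1 deg1* libraries, replicate 2 had a chromosome XI median of 0.091, apart from the others at 0.104 to 0.106. *FMP46* had 58.45 CPM in *elp3 deg1* replicate 3, against 66.58 to 67.18 in the others. Between *urm1 tcd1* and *elp3 tcd1* replicates 1 to 3, 191 of the 314 genes differed by more or less than a doubling in edgeR's test. Of the 314, 31.5% were above and 29.3% below it. Over all genes tested, 26.4% were above and 32.2% below their own expected level, so the count was near the background.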

How the results depend on the processing

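No called value changed sign under any alternative run, and the median departure stayed near 0 on either side except as given here. With all 4 libraries of each *tcd1* label, 141 genes were higher and 1 lower in *urm1 tcd1* than in WT, 10 were above and 45 below a doubling of WT, 0 and 11 of *elp3 tcd1*, 6 and 62 of *urm1 deg1*, and 5 and 49 of *elp3 deg1*. 0 were above and 3 below in all 4 tests, 51 were higher and 1 lower in *elp3 tcd1*, and the median departure was -0.177. DESeq2 placed 25 genes below in all 4 tests, and an adjusted p of 0.05 gave 6 genes lower than WT. TMM factors from genes off chromosome XI moved the median departure to 0.040. Leaving out 1 library gave medians of -0.007 to 0.025, the highest without *urm1 tcd1* replicate 1. With replicate number as a block, 112 genes were above a doubling of WT and 111 below, 4 calls fewer in each direction, and the median was -0.002. Deviations of libraries with the same number correlated at -0.06 to 0.09 across genes, so the numbers were not taken as pairs. The 123 gene-level results were each rerun under the alternatives that concern them. Among these reruns, 1724 kept the call and 121 lost it. Without 1 library, *ASH1*, *CDC16*, *DEF1*, *ELM1*, *MIF2*, *MRP49*, *RPC25*, *UTP11* and *YKL153W* lost theirs.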
